A study of Mus musculus with 9 samples.

Results

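The genes described are 9 enzymes that oxidise or reduce steroids and related lipids in the liver: the hydroxysteroid dehydrogenases Hsd17b2, Hsd17b6, Hsd17b11, Hsd17b12, Hsd17b13, Hsd3b2, Hsd3b7 and Hsd11b1, and the steroid reductase Srd5a1. They were chosen by name, and every probe set annotated with 1 of these symbols alone was taken. Of the 9 genes, 8 had such a probe set, with 13 probe sets in all, out of 18194 genes and 45101 probe sets on the array. No probe set was named for Srd5a1, so its expression was not analysed here. All 8 measured genes passed the filter on dim signal, as did 13888 genes in total.

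RNA came from 9 pieces of liver tissue of male C57Bl6 mice aged 12 months, untreated and on regular chow, and each piece was hybridised to its own Affymetrix array. Wild-type liver (genotype wildtype, labelled normal with mild steatosis) gave 3 pieces from 1 mouse. Adjacent liver (genotype SART1+/-, labelled as cellular alteration with severe steatosis) and tumor (genotype SART1+/-, labelled hepatocellular carcinoma with severe steatosis) gave 3 pieces each, all from 1 other mouse. The SART1+/- males developed such tumors without treatment from 10 months of age, per the labels. Every p-value here rests on how pieces of the same organ or tumor vary, since animals were not replicated. Genotype, animal and degree of steatosis differ together between the wild-type pieces and the others and cannot be told apart.

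Steroid dehydrogenases move hydrogen to or from a hydroxyl group of a steroid and so switch hormones between active and inactive forms. The liver is the main organ in which androgens, estrogens and glucocorticoids are inactivated or regenerated, and in which cholesterol is turned into bile acids. Several enzymes that carry a steroid name act mainly on other substrates, among them retinol and the acyl chains of growing fatty acids, and a few sit on the surface of lipid droplets.

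Values are RMA expression values on the log2 scale, in which 1 unit is 2-fold. Sart1, the gene altered in the heterozygous mouse, had a mean of 8.34 ± 0.02 in the wild-type pieces, 8.37 ± 0.03 in the adjacent pieces and 7.74 ± 0.03 in the tumor pieces (SD, n = 3). Its level in the adjacent pieces therefore did not mark their genotype. Arrays of a group correlated at r = 0.996 to 0.998 over all probe sets, and arrays of different groups at 0.959 to 0.984. The difference between the 3' and 5' control probe sets of Actb was 0.82 to 0.91 in wild-type and adjacent pieces and 0.54 to 0.69 in tumor pieces. For Gapdh it was 0.26 to 0.29 in wild-type, 0.15 to 0.18 in adjacent and 0.20 to 0.23 in tumor pieces, so the order of the groups differed between these controls. The part of RNA quality in the results was not tested. Defining hepatocyte markers were high in all groups, with a mean level over 9 genes of 13.65 to 13.82 on every array. In pieces of tissue, fewer cells of a type and less RNA per cell cannot be told apart.

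A gene was called when limma gave an adjusted p under 0.05 (Benjamini-Hochberg over all 13888 genes) and a log2 difference of at least 1 in size. Between tumor and wild-type liver, 3 of the 8 measured genes fell (Hsd3b2, Hsd3b7 and Hsd17b2) and 1 rose (Hsd17b6), beside 13% of all tested genes called, 8.41% higher and 4.59% lower. Between adjacent and wild-type liver, 3 fell (Hsd17b6, Hsd3b2 and Hsd3b7) and 0 rose, beside 11.5% of all tested genes called, 8.29% higher and 3.22% lower. Between tumor and adjacent liver, Hsd17b6 rose and Hsd3b2 fell, beside 5.04% of all tested genes called, 2.1% higher and 2.94% lower. The median log2 difference of the 8 genes was -0.64, -0.43 and -0.56 in these comparisons, beside -0.01, -0.0078 and -0.01 over all tested genes. By adjusted p alone 6, 6 and 8 of the 8 passed, beside 63.4%, 63% and 45.2% of all tested genes. Groups did not overlap for 6, 6 and 8 of the 8, beside 69.1%, 69.5% and 53% of all tested genes. These background shares are high, so the adjusted p or lack of overlap alone says little about a member. Both comparisons with wild-type liver use the same 3 control pieces.

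**Figure D1:**
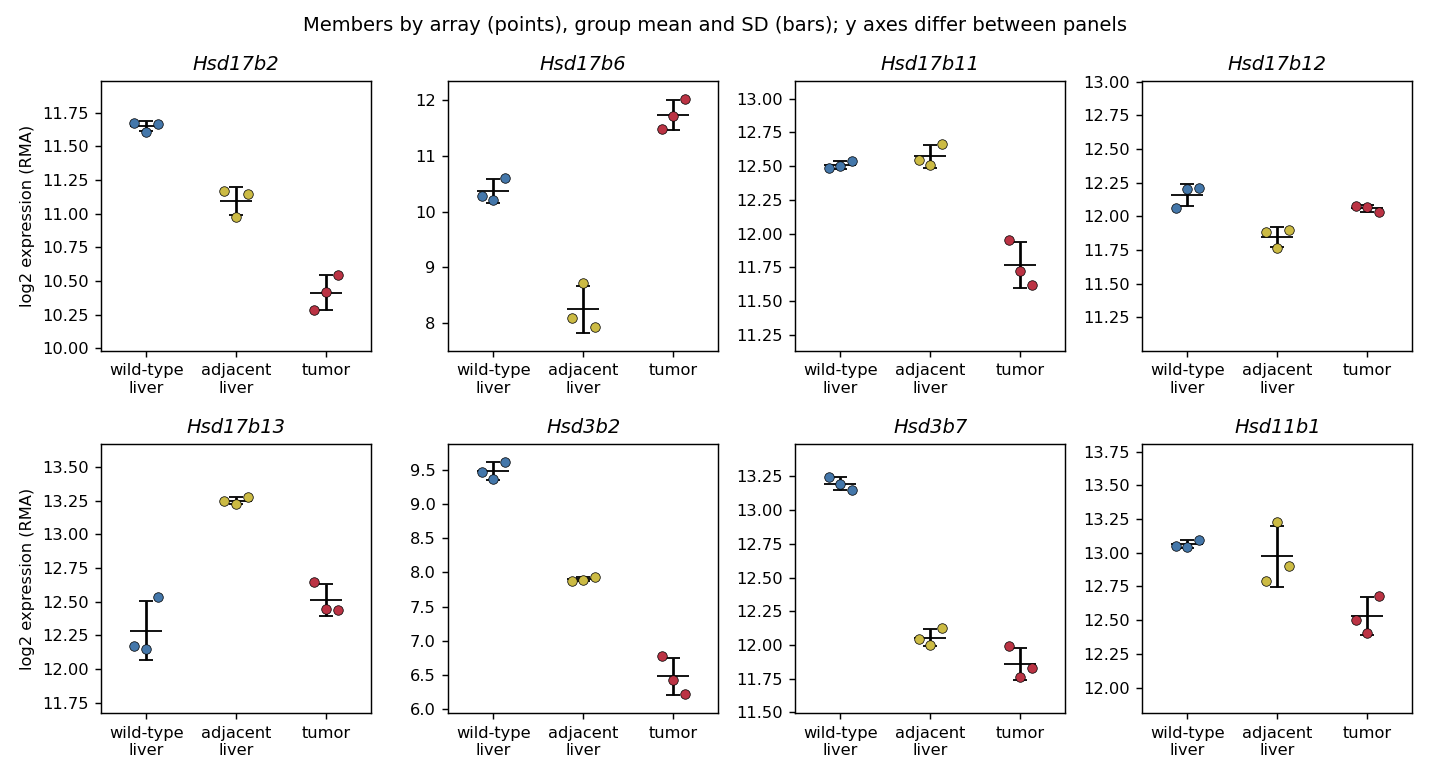
Log2 expression (y axis, different range in each panel) of the 8 measured genes in each array (points) by group (x axis), with the group mean and SD of 3 pieces (bars). Hsd3b2 stepped down from 9.48 to 7.90 to 6.48, whereas Hsd17b6 was lowest in adjacent liver and highest in tumor.

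Hsd17b6 gave the only pattern among the 8 in which adjacent liver and tumor were called in opposite directions against wild-type liver. The share of all tested genes with such a pattern was not counted, so how unusual it is remains unknown. The enzyme oxidises androstanediols back towards dihydrotestosterone and is related in sequence to retinol dehydrogenases. Its representing probe set, 1449385_at, read 10.29, 10.21 and 10.61 in the wild-type pieces, 8.08, 8.71 and 7.92 in the adjacent pieces and 11.49, 11.72 and 12.02 in the tumor pieces. The 3 groups did not overlap, and the adjacent pieces were the most variable, with a range of 0.79. Hsd17b6 fell by 2.13 in adjacent liver (SE 0.20, limma adjusted p = 5.95e-06), a 4.38-fold lower level. It rose by 1.38 in tumor against wild-type liver (SE 0.20, limma adjusted p = 0.000144). Tumor pieces exceeded adjacent pieces of the same animal by 3.51 (SE 0.20, limma adjusted p = 4.31e-07), which is 11.4-fold and the widest gap of any measured member in any of the 3 comparisons. A further probe set, 1449386_at, lay below the 40th percentile on all 9 arrays, with group means of 4.96, 4.76 and 4.80, and gives no second reading of the gene. Averaging both reduced the tumor difference to 0.61 (adjusted p = 0.000484), under the 2-fold limit.

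The promoter of Hsd17b6 is printed here because this gene turned in opposite directions. The 250 bases before its start, from RefSeq on GRCm38.p6 at chr10:128007612-128007861, minus strand, 5′ to 3′, carry capitals at matches to CCAAT, read on both strands.
Hsd17b6: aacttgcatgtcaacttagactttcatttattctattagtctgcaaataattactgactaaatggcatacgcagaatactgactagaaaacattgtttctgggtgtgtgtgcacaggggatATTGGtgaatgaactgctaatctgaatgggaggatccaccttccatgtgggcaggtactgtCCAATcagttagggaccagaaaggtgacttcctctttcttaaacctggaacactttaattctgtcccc
This window held 2 matches to CCAAT, a motif found in 33.8% of 32851 promoter windows of the same length. It was poor in CpG, with 1 CpG and a GC content of 41.2%, beside medians of 6 and 52.4% over all windows. RefSeq lists another start for the gene, whose overlapping window held 3 matches to CCAAT and 0 CpG.

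Hsd17b2, which inactivates estradiol and testosterone by oxidation, declined in steps. It read 11.67, 11.61 and 11.66 in the wild-type pieces, 11.16, 10.98 and 11.14 in the adjacent pieces and 10.28, 10.42 and 10.54 in the tumor pieces. No groups overlapped, and the order wild-type, adjacent, tumor held for every piece. In tumor it fell by 1.23 against wild-type liver (SE 0.08, limma adjusted p = 2.45e-07), a 2.35-fold lower level. The difference was -0.55 between adjacent and wild-type liver (adjusted p = 0.000125) and -0.68 between tumor and adjacent liver (adjusted p = 5.15e-05), both under the 2-fold limit.

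Hsd3b2 had the largest loss of the members. It belongs to the enzymes that convert steroids with a hydroxyl group at carbon 3 into ketosteroids. Its single probe set read 9.46, 9.36 and 9.62 in the wild-type pieces, 7.88, 7.90 and 7.94 in the adjacent pieces and 6.78, 6.43 and 6.23 in the tumor pieces. The adjacent pieces lay within 0.06 of each other and between the other groups, with no overlap. In tumor it fell by 3.00 against wild-type liver (SE 0.12, limma adjusted p = 8.34e-09), or 8.0-fold lower. The difference was -1.58 between adjacent and wild-type liver (adjusted p = 1.24e-06) and -1.42 between tumor and adjacent liver (adjusted p = 5.63e-06), and all 3 differences were called. Hsd3b2 is a close copy of other genes of its family, which could share signal on the array, and 1 further probe set annotated with several symbols, Hsd3b2 among them, was left out.

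Hsd3b7, which acts on sterol intermediates early in bile acid synthesis, was lower by a similar amount in both tissues of the heterozygous mouse. It read 13.24, 13.19 and 13.15 in the wild-type pieces, 12.04, 12.00 and 12.12 in the adjacent pieces and 11.99, 11.76 and 11.83 in the tumor pieces. The wild-type pieces stood more than 1 unit above every other piece. It fell by 1.14 in adjacent liver (SE 0.07, limma adjusted p = 2.70e-07) and fell by 1.33 in tumor (SE 0.07, limma adjusted p = 6.83e-08). Tumor and adjacent liver differed by -0.19 (95% interval -0.35 to -0.03, adjusted p = 0.0481), close to the threshold, and in a fit over all probe sets the adjusted p was 0.0528.

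Hsd11b1 regenerates active glucocorticoid from its inactive keto form inside hepatocytes. It read 13.05, 13.04 and 13.09 in the wild-type pieces, 12.79, 13.23 and 12.90 in the adjacent pieces and 12.50, 12.40 and 12.68 in the tumor pieces. The adjacent pieces lay on both sides of the wild-type values, and the tumor pieces below all others. Tumor differed from wild-type liver by -0.53 (SE 0.11, limma adjusted p = 0.00147), or 1.45-fold, and from adjacent liver by -0.45 (adjusted p = 0.00653). Adjacent and wild-type liver differed by -0.09 (95% interval -0.33 to 0.15, adjusted p = 0.497), or by 0.0042 without adjacent liver replicate 1.

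Hsd17b13 and Hsd17b11 are neighbouring, related genes whose proteins coat lipid droplets, and their levels followed different courses. Hsd17b13 is a liver-enriched enzyme with activity on retinol. It read 12.17, 12.15 and 12.54 in the wild-type pieces, 13.25, 13.23 and 13.28 in the adjacent pieces and 12.65, 12.44 and 12.44 in the tumor pieces. It was highest in adjacent liver, above every other piece, whereas tumor and wild-type values overlapped. The difference between adjacent and wild-type liver was 0.96 (SE 0.10, limma adjusted p = 1.49e-05), which at 1.95-fold missed the 2-fold limit. Without wild-type replicate 3, the highest of its group, it was 1.09, and with array weights 1.03, both past the limit. Tumor and wild-type liver differed by 0.22 (95% interval -0.0031 to 0.45, adjusted p = 0.0782). The tumor pieces differed from the adjacent pieces by -0.74 (adjusted p = 0.000186).

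Hsd17b11, which acts on androgens and is found on lipid droplets in many tissues, read 12.49, 12.50 and 12.54 in the wild-type pieces, 12.55, 12.51 and 12.67 in the adjacent pieces and 11.95, 11.72 and 11.62 in the tumor pieces. Only the tumor pieces stood apart, below all 6 others. Tumor differed from wild-type liver by -0.74 (SE 0.09, limma adjusted p = 2.32e-05), or 1.67-fold, and from adjacent liver by -0.81 (adjusted p = 2.72e-05). Adjacent and wild-type liver differed by 0.07 (95% interval -0.12 to 0.25, adjusted p = 0.514), a sign that turned with cyclic loess (-0.011).

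The promoters of this pair are printed because the genes are next to each other on chromosome 5, on the same strand, yet Hsd17b13 stood highest in adjacent liver and Hsd17b11 lowest in tumor. Both are the 250 bases before the RefSeq start on GRCm38.p6, minus strand, 5′ to 3′. The window of Hsd17b13 is chr5:103977389-103977638 and that of Hsd17b11 is chr5:104021797-104022046. Capitals mark matches on either strand to AGGTCA, the half-site of nuclear receptors, in the first, and to CCAAT and TTGCNNAA, the core bound by C/EBP factors, in the second.
Hsd17b13: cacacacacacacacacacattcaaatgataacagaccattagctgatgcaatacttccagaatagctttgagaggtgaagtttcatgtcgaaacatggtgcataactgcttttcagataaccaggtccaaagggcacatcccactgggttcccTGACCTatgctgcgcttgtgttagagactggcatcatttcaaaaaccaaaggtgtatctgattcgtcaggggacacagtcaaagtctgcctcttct
Hsd17b11: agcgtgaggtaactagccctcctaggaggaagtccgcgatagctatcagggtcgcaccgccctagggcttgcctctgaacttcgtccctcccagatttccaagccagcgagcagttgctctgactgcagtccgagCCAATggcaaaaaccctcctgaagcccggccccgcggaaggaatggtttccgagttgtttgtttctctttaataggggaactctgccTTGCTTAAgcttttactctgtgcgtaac
The Hsd17b13 window began with a run of CA repeats and held 3 CpG at a GC content of 44.8%, against 13 CpG and 54.8% for Hsd17b11. AGGTCA was found in 14% of all promoter windows and TTGCNNAA in 9.56%. Of the 9 members, 8 had a RefSeq window. Matches to the STAT5 motif TTCNNNGAA, present in 7.02% of all windows, were found in that of Hsd3b7 alone, and TATAAA, present in 12.4%, was found in none of the members' windows. Motifs did not overlap within the printed windows, and a match is a description of letters only. CpG counts were 1 in the Hsd3b2 and Hsd3b7 windows, as in the printed one of Hsd17b6, and 20 in those of Hsd17b12 and Srd5a1.

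Hsd17b12 is the ketoacyl reductase of the fatty acid elongation cycle and stayed furthest from the 2-fold limit when each gene is taken at its largest difference over the 3 comparisons, which for Hsd17b12 was -0.31. It read 12.06, 12.21 and 12.21 in the wild-type pieces, 11.89, 11.76 and 11.90 in the adjacent pieces and 12.08, 12.07 and 12.03 in the tumor pieces. The adjacent pieces lay below all others, and tumor and wild-type values overlapped. Adjacent liver differed from wild-type liver by -0.31 (SE 0.06, limma adjusted p = 0.00174), a 1.24-fold difference. Tumor and wild-type liver differed by -0.10 (95% interval -0.24 to 0.04, adjusted p = 0.203), and tumor was 0.21 above adjacent liver (adjusted p = 0.0209).

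**Figure D2:**
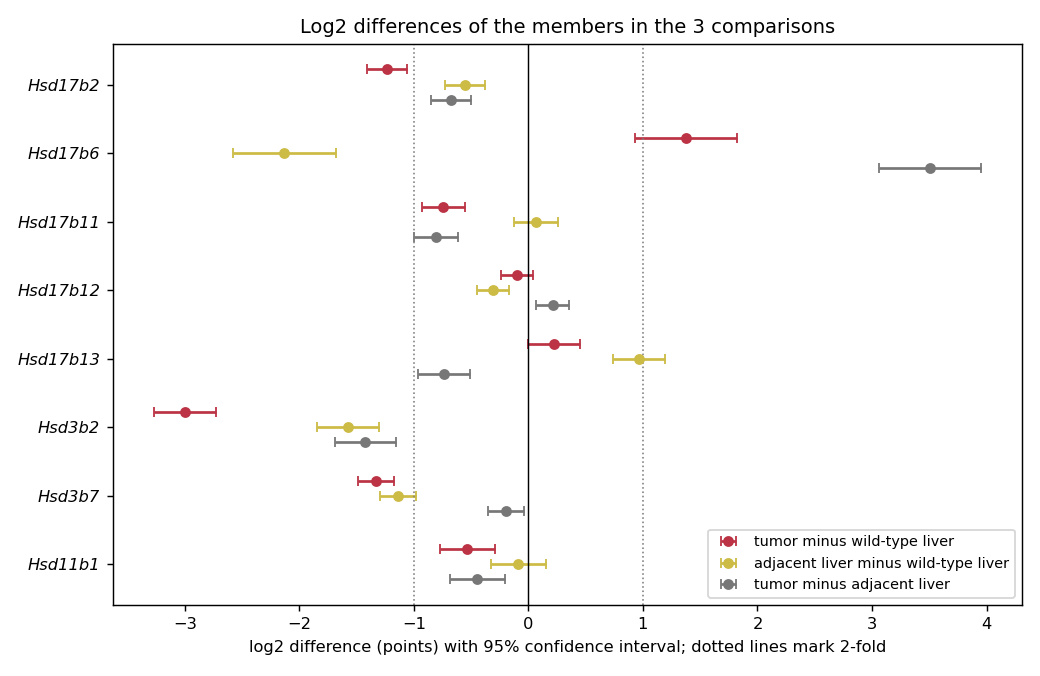
Log2 differences (x axis) of the 8 measured genes (y axis) in the 3 comparisons (colours), with 95% confidence intervals from limma. Dotted lines mark 2-fold in each direction. Hsd17b6 lies at 1.38 in tumor and -2.13 in adjacent liver against wild-type liver, and Hsd3b2 lies left of the 2-fold line in all 3 comparisons.

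Of the 8 measured genes, 4 had more than 1 probe set, and of all 13 probe sets 11 passed the filter. The probe sets of Hsd17b11 that passed gave close values, at -0.74 and -0.63 for tumor against wild-type liver (1434642_at and 1421011_at), while 1443059_at lay below the filter on every array. Both probe sets of Hsd17b12 placed adjacent liver below wild-type liver, with differences of -0.31 (1450011_at) and -0.32 (1450010_at). For Hsd17b13 the bright probe set 1460606_at gave 0.96 between adjacent and wild-type liver, and the dim 1425589_at, at 5.52 ± 0.03 in wild-type liver (SD, n = 3), gave 0.37 (limma adjusted p = 0.000669). Adjacent liver was the highest group in both, without overlap with wild-type liver. Over all probe sets, those called either way made up 12%, 10.7% and 4.72% of the 24140 tested in the 3 comparisons, in the order used above.

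**Figure D3:**
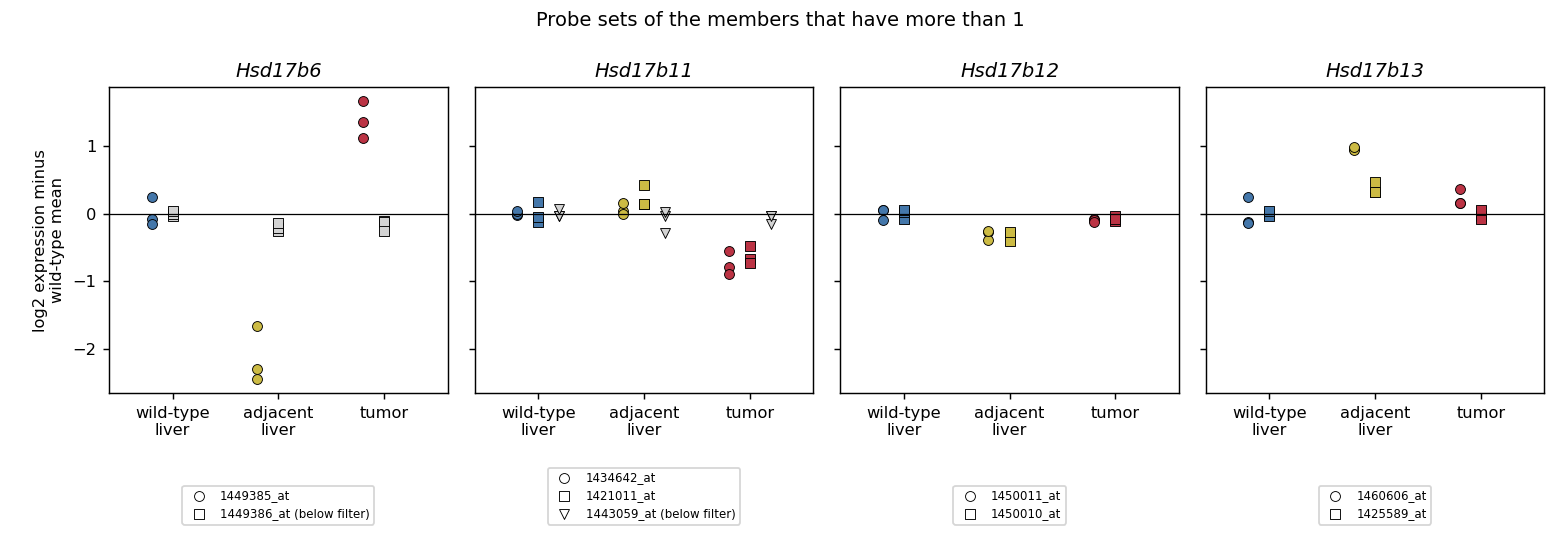
Log2 expression of each array minus the wild-type mean of the same probe set (y axis) by group (x axis), for the 4 genes with more than 1 probe set (marker shapes). Grey markers are probe sets below the filter. For Hsd17b6, 1449385_at spans the widest range and 1449386_at lies below the filter, whereas the tested probe sets of Hsd17b11 were both lowest in tumor, those of Hsd17b12 both lowest in adjacent liver and those of Hsd17b13 both highest there.

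The genes next to Hsd17b6, Hsd3b2 and Hsd17b11 on the chromosome were compared with them. Gene order was taken from RefSeq, and the neighbours named were picked with their values in view. Hsd17b6 lies on chromosome 10 beside a row of retinol dehydrogenase genes. Its next neighbour on that side, Sdr9c7, fell by 2.75 in adjacent liver and fell by 3.24 in tumor. Rdh16, a retinol dehydrogenase, fell by 3.22 in adjacent liver and by 1.47 in tumor, and Rdh7 was at -0.59 and -0.63. Rdh16f2 had the same signs as Hsd17b6 at a smaller size, with -0.76 in adjacent liver and 0.67 in tumor, neither of them called. Rdh9, taken from the retinol list, also had these signs, at -0.39 in adjacent liver (not called) and 1.56 in tumor (called). Cross-hybridisation of the Hsd17b6 probe set with related genes was not tested. Hsd3b2 lies on chromosome 3 between Hsd3b5 and Hsd3b3, 2 enzymes of the same family. Hsd3b3 fell by 1.45 in adjacent liver and fell by 2.81 in tumor, where Hsd3b2 was at -1.58 and -3.00, and Hsd3b5 fell in both. Its mean was 12.22 in the wild-type pieces, 5.70 in the adjacent pieces and 5.13 in the tumor pieces. The tumor level lay at the arrays' 40th percentile, near the lower end of the scale, so no size is given for its loss. Cross-hybridisation between these copies was not tested. Further along, Hsd3b1 rose by 1.57 in adjacent liver and was at -0.31 in tumor (limma adjusted p = 0.187), from a mean of 5.92 in the wild-type pieces. On the far side of Hsd17b11, Nudt9 was at 0.68 in adjacent liver and -0.07 in tumor.

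**Figure D4:**
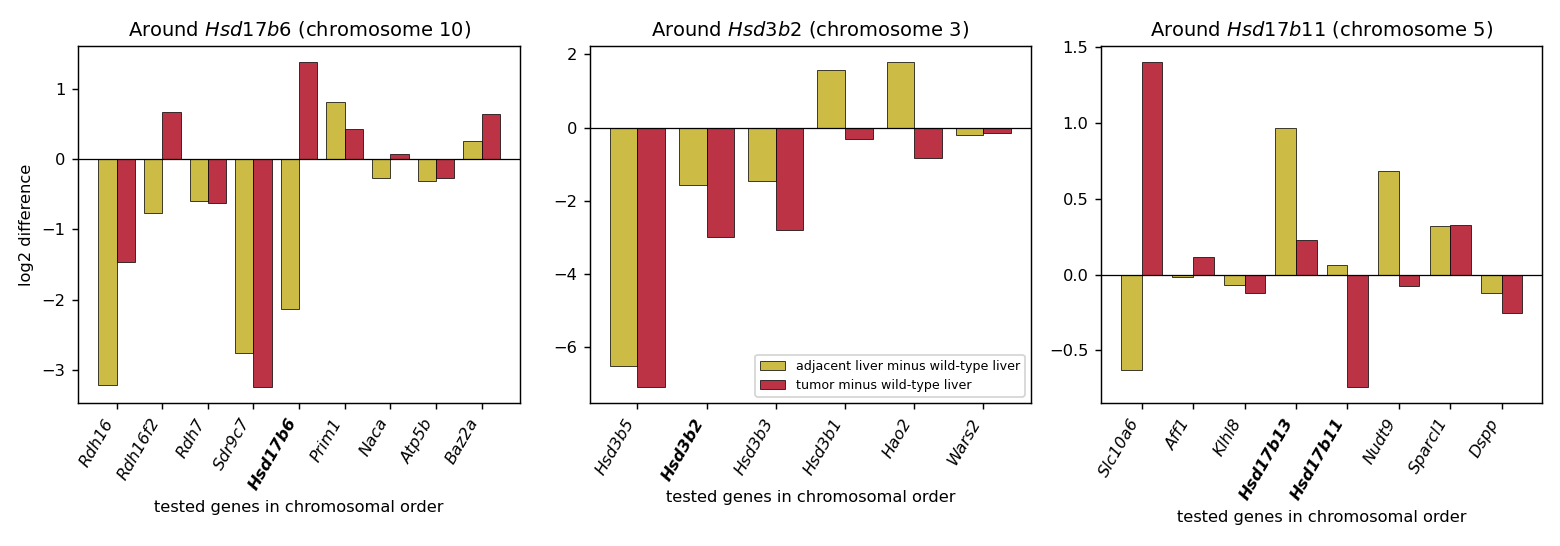
Log2 differences from wild-type liver (y axis) of adjacent liver and tumor (bar colours) for the tested genes among the 5 on each side of Hsd17b6, Hsd3b2 and Hsd17b11 (x axis, chromosomal order, members in bold). Hsd3b5, Hsd3b2 and Hsd3b3 fell in both tissues, whereas the bars of Hsd17b6 point in opposite directions.

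Genes with the profiles most like each member were found by the root mean square difference of log2 values, centred on the wild-type mean, over the 9 arrays. Pieces of 1 animal share that animal, so likeness is a description. Hsd3b2 was closest to Aadat (0.13) and Nat8f2 (0.16), and Hsd3b7 to Aldh5a1 (0.05) and Lgalsl (0.06). Hsd17b2 was closest to Mlycd (0.08) and Slc25a44 (0.09), and Mlycd lies 4 genes away from it on chromosome 8. Hsd17b11 was closest to Ttpa and Asb13 (0.06 each), Hsd17b12 to Wdr82 and Khdc4 (0.05 each), Hsd17b13 to Metrn and AW112010 (0.08 each), and Hsd11b1 to Arhgap29 (0.05) and Prnp (0.06). Hsd17b6 had no near match by this measure: its closest genes, Lss of cholesterol synthesis and Ighm, lay 0.54 and 0.59 away. The distance is not scaled to a gene's spread, so the variable pieces of Hsd17b6 also add to it. The most variable probe set of Ighm gave 1.60 in place of -2.07 in adjacent liver. Among the members themselves the closest pair was Hsd17b11 and Hsd11b1 (0.23) and the farthest Hsd17b6 and Hsd3b2 (2.57).

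Other genes of the pathways in which the members act were counted from 7 lists. Over all tested genes, 8.41% were called higher and 4.59% lower in tumor against wild-type liver, with a median of -0.01. In adjacent against wild-type liver these shares were 8.29% and 3.22%, with a median of -0.0078. The counts and medians of all 7 lists are to be read beside them. Of 21 tested other steroid enzymes, 8 fell and 3 rose in tumor, and 5 fell and 2 rose in adjacent liver, with medians of -0.24 and -0.42. Hsd3b3, Hsd3b5 and the sulfotransferase Sult2a8, at -6.95 in tumor, were among those that fell. The tumor mean of Sult2a8 was 5.66, near the lower end of the scale, so the size of its loss is uncertain. In contrast Akr1c18, which inactivates progesterone, rose by 5.79 in tumor and by 3.18 in adjacent liver. Of 5 tested steroid receptors, 1 fell in tumor and 0 were called in adjacent liver. The estrogen receptor gene Esr1 was the one that fell, by 1.12 (limma adjusted p = 2.61e-06), or -0.82 with the mean of its probe sets, under the limit. Gper1, Esr2 and the glucocorticoid receptor Nr3c1 were at -0.36, -0.23 and -0.15.

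For Hsd11b1, genes known as glucocorticoid targets give the pathway context. Of 14 tested, 6 fell and 2 rose in tumor, and 5 fell and 2 rose in adjacent liver, with medians of -0.69 and -0.48. Tsc22d3 fell by 3.06 in tumor and by 2.63 in adjacent liver, G6pc was at -3.10 and -2.80, and Tat at -2.55 and -1.75, all called. The metallothionein Mt1 rose by 2.85 in tumor and by 3.16 in adjacent liver. For Hsd3b7, 8 of 15 tested genes of bile acid synthesis fell and 0 rose in tumor, with a median of -1.10, and 5 fell and 1 rose in adjacent liver, with a median of -0.51. In tumor the genes that fell included Cyp8b1 (-5.81), Cyp7b1 (-4.46), Cyp27a1 (-2.48) and Slc27a5 (-1.96). Hsd3b7 itself was more negative than the list median in both comparisons.

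For the lipid enzymes, 2 of 11 tested genes of fatty acid elongation fell and 1 rose in tumor, with a median of 0.04, and 4 fell and 1 rose in adjacent liver, with a median of -0.13. Elovl3 fell by 7.21 in tumor, to a mean of 5.52 near the lower end of the scale, so the size of its loss is uncertain. Elovl7 rose by 4.06 in tumor, while Tecr and Hacd2, which act in the same cycle as Hsd17b12, were at -0.90 and 0.80. Of 17 tested lipid droplet proteins, 6 fell and 5 rose in tumor and 5 fell and 1 rose in adjacent liver, with medians of -0.25 and -0.07. Plin3 rose by 1.27 in tumor and by 1.51 in adjacent liver, and Abhd5 rose by 1.42 in tumor, or by 0.63 with the mean of its probe sets, under the limit. Mgll fell by 1.92 in tumor and Plin5 by 1.85. Of 18 tested retinol and retinal enzymes, 5 fell and 1 rose in tumor and 4 fell and 0 rose in adjacent liver, with medians of -0.48 and -0.24. Cyp26a1 fell by 4.13 in tumor, Aldh1a7 by 1.34 and Aldh1a1 by 1.25, and Rdh9 rose by 1.56. The lists share some genes, such as Akr1d1 and Akr1c6 in those of steroid enzymes and bile acid synthesis.

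**Figure D5:**
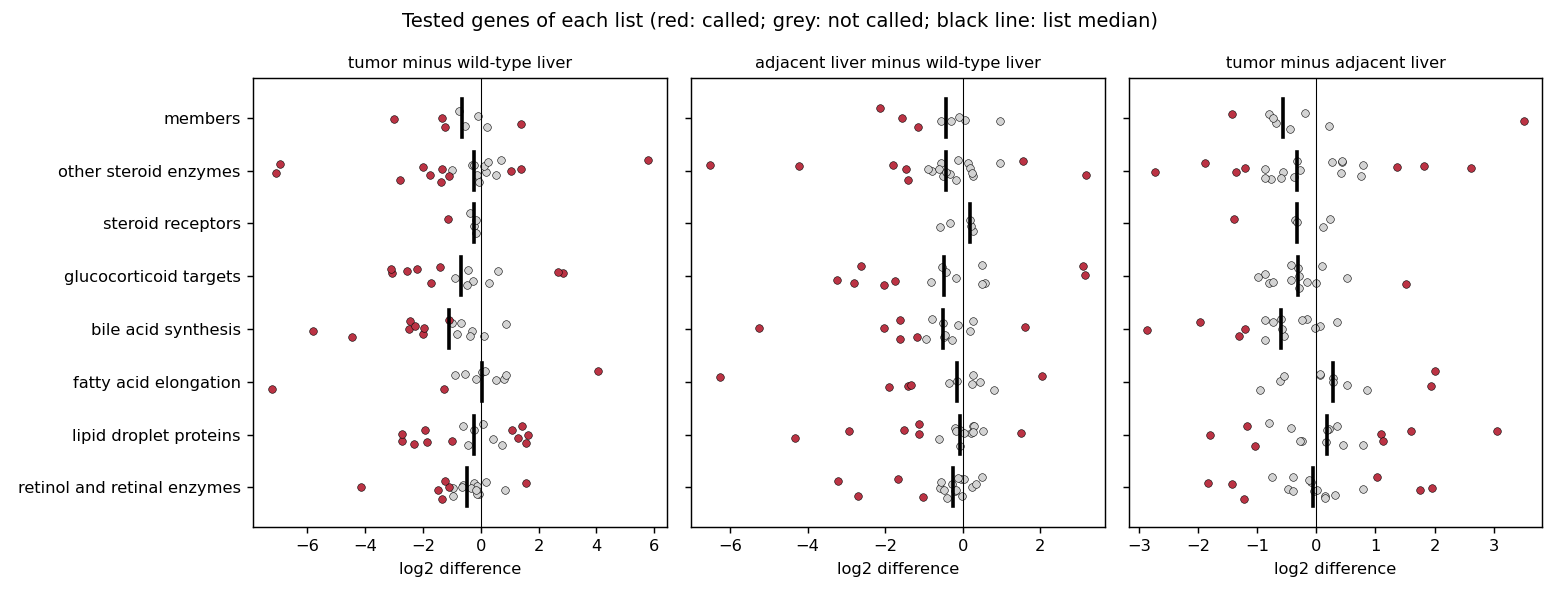
Log2 differences (x axis) of the 8 measured genes and of the tested genes of the 7 lists (y axis) in the 3 comparisons (panels). Points are genes, red where called, and black lines are medians. The median of bile acid synthesis was the lowest of the lists in tumor, at -1.10.

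Markers of other cell types were counted in the same way, beside the 13% and 11.5% of all tested genes called in tumor and in adjacent liver against wild-type liver. Of the tested markers in tumor against wild-type liver, 2 of 10 macrophage genes rose and 2 fell, 1 of 8 endothelial genes rose, 4 of 9 stellate and fibroblast genes rose and 1 fell, 2 of 6 cholangiocyte genes rose, 1 of 8 lymphocyte genes rose and 2 of 6 neutrophil genes rose. The count of called genes became 2 for macrophages without wild-type replicate 3, 2 for endothelial cells without tumor replicate 3, 2 or 0 for lymphocytes without tumor replicate 2 or 3, and 1 for steroidogenic cells without tumor replicate 2. In adjacent against wild-type liver, 2 macrophage genes rose and 3 fell, 1 endothelial gene rose and 1 fell, 4 stellate and fibroblast genes rose and 1 fell, and 2 cholangiocyte, 1 lymphocyte and 2 neutrophil genes rose. In that comparison the count of called endothelial genes was 1 without wild-type replicate 3, adjacent replicate 2 or adjacent replicate 3, and that of lymphocyte genes 0 without wild-type replicate 2 or adjacent replicate 2. The mean level of the cholangiocyte markers was 6.21 to 6.34 in wild-type pieces, 7.56 to 7.64 in adjacent pieces and 7.44 to 7.55 in tumor pieces. The 2 that rose were Cldn7 (3.81 in tumor and 5.31 in adjacent liver) and Krt23 (2.41 and 1.63). Krt7 (0.09 and 0.21), Krt19 (0.31 and -0.13), Epcam (0.09 and -0.06) and Sox9 (0.73 and 0.99) were not called, so the mean does not stand for each marker. The mean level of the stellate and fibroblast markers was 8.18 to 8.68 in wild-type pieces, 9.24 to 9.51 in adjacent pieces and 9.19 to 9.66 in tumor pieces. The 4 that rose in both comparisons were Col1a1, Col1a2, Col3a1 and Pdgfrb, and Lrat fell in both. In tumor and adjacent liver, Acta2 (0.69 and 0.92), Des (0.04 and -0.04), Reln (0.59 and -0.73) and Dcn (0.11 and -0.48) were not called. This mean does not stand for each marker either. Of 9 hepatocyte markers, 1 fell in tumor, the urea cycle gene Cps1 (-1.37). Of 5 tested markers of steroidogenic cells, 2 rose in tumor, the steroid hydroxylases Cyp17a1 (1.40) and Cyp21a1 (1.03, and 0.96 without tumor replicate 2), and 0 fell. The others tested were Star (-0.53), Nr5a1 (-0.10) and Fdx1 (-0.52), and Cyp11a1, Cyp11b1 and Mc2r lay below the filter on all 9 arrays. Cps1, the cholangiocyte genes, the stellate and fibroblast genes and these steroidogenic genes were named after their values were seen. The part of the makeup of the pieces in the values of the members was not tested.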

How the data were processed

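The authors deposited log2 RMA values, 1 for each probe set and array, as 1 table of 9 arrays. The submitters' processing notes name RMA and version 1.3.1.187 of the Affymetrix Expression Console. RMA corrects background, makes the arrays' distributions alike and summarises the probes of a set, so a shift of most genes would not show. The log base was read from the values, whose maximum as a power of 2 is 23383. No 2 arrays were identical. Precision is limited by having 3 arrays in each group, and no detection calls, scan dates or batches were used here.

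Probe sets were named from the platform's annotation: 34958 had 1 symbol and were used, 932 had several and 9211 none. A gene was represented by its probe set with the highest mean and tested when 3 or more arrays showed it above their own 40th percentile. Differences were fitted with limma 3.58.1 in R 4.3.3 (1 mean per group, all 9 arrays, lmFit and eBayes), a step that was tested on simulated data. A second fit ran over all 24140 probe sets that passed the filter. Levels of different genes were not compared.

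The members, the 7 gene lists and the 8 marker lists were chosen with earlier results of these data known. Named genes are the members, up to 4 genes per list, ranked by adjusted p between tumor and wild-type liver, the 2 genes nearest in profile to each member, and Sart1. Others are marked as chosen after their values were seen. Alternatives covered the fold limit, the filter, the choice of probe set, normalization, the variance model, array weights, 2 groups alone, a replicate block and each array left out in turn. Promoter sequences are RefSeq's, on GRCm38.p6.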

Additional observations from a re-analysis of the deposited data

Results flagged for a closer look

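Hsd17b6 stood out because adjacent liver and tumor, 2 tissues of the same mouse, moved in opposite directions against the same wild-type pieces. The difference from wild-type liver was -2.13 in adjacent liver and 1.38 in tumor on the log2 scale, both past the threshold. The difference between the 2 effects, which is tumor minus adjacent liver, was 3.51 (SE 0.20, limma adjusted p = 4.31e-07), and it was 1.77 to 3.74 over all alternatives. With 3 pieces from each tissue of 1 animal, the difference describes these pieces. The flag was applied only to the members, the named list genes and the genes nearest in profile. Cidec, picked from the lipid droplet list with its values in view, was also called in opposite directions. It was at -1.51 in adjacent liver, where its mean of 4.94 was near the lower end of the scale, and at 1.55 in tumor. The pattern is therefore not particular to Hsd17b6, and its share among all tested genes was not counted. Cidec was not followed under the alternatives.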

How the results depend on the processing

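Of 480 values of the members under the alternatives, 464 kept their direction and their side of the threshold. Many of these values could not have moved. The fold limit, the filter, the variance model, 2 groups alone and the replicate block do not alter a log2 difference. Nor do other probe set choices for genes with 1 probe set, or leaving out an array of the group not compared. This count and the next therefore say little about stability. Of the 9 called differences of members, 8 were called with the same sign in every alternative. The exception was Hsd17b6 in tumor against wild-type liver with the mean of its probe sets (0.61), in which 1 of the 2 probe sets lies below the filter. Without a minimum log2 difference the calls of members went from 3 to 6 in adjacent against wild-type liver and from 2 to 8 in tumor against adjacent liver. All genes called went to 8799, 8745 and 6274 in tumor against wild-type, adjacent against wild-type and tumor against adjacent liver, from 1806, 1599 and 700. With 1 array left out, members called were 4 in tumor against wild-type liver, 3 to 4 in adjacent against wild-type liver and 2 in tumor against adjacent liver. The sign turned, for values that were not called, in Hsd17b11 (adjacent against wild-type, -0.011 with cyclic loess) and Hsd11b1 (adjacent against wild-type, -0.21 to 0.0042 with 1 array left out, the highest without adjacent liver replicate 1). The sign also turned for other genes named, among them Ighm, which lay past the 2-fold limit in the main fit. In tumor against wild-type liver these were Khdc4 (0.19 with the mean of probe sets and 0.32 with the most variable one), Nr3c1 (0.064 with the most variable one) and Nsdhl (-0.16 to 0.040 with 1 array left out, above 0 without wild-type replicate 1, wild-type replicate 2 or tumor replicate 2). In adjacent against wild-type liver they were Sart1, Hacd2, Cyp21a1, Asb13 and Ighm. Sart1 was at -0.058 with the mean and -0.021 with cyclic loess. Hacd2 (-0.066) and Cyp21a1 (-0.036) turned with the most variable probe set, and Asb13 with the mean (-0.11) and the most variable one (-0.26). Ighm went from -2.07 in the main fit to 0.19 with the mean and to 1.60 with the most variable one, which was called. Lgalsl turned in tumor against adjacent liver (0.016 with the most variable probe set). Beyond the use of other probe sets or fewer arrays, the cause was not tested. Same-numbered pieces were not paired in the main fit. Their deviations from the group means correlated at r = -0.11 to 0.14, above 0.1 in 2 of 9 pairs. The best match had the same number in 6 of 18 cases. Only adjacent and tumor pieces share an animal, and their same-numbered pairs were at r = 0.09, 0.06 and 0.04. With 3 pieces in each group, these values cannot exclude a pairing. With the replicate block, members called stayed at 4, 3 and 2, and all genes called were 1807, 1599 and 700. The dim probe sets of Hsd17b6 and Hsd17b11 below the filter cannot be told from background.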

Other observations

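The genes in what follows were picked with their values in view and stand for no group. Of the 18 tested retinol and retinal enzymes, 3 were called higher and 3 lower in tumor than in adjacent liver, with a median of -0.06. Of the 21 other steroid enzymes, 3 were called higher and 4 lower, with a median of -0.33. Over all tested genes, 2.1% were called higher and 2.94% lower in this comparison, with a median of -0.01. Nsdhl, an enzyme of cholesterol synthesis, fell by 1.41 in adjacent liver (limma adjusted p = 2.33e-06) and was at -0.05 in tumor against wild-type liver (adjusted p = 0.744). Hsd17b7, which also acts in cholesterol synthesis, was at -0.57 in adjacent liver and 0.19 in tumor, and its most variable probe set gave -1.12 in adjacent liver, which was called. Lss, the closest gene to Hsd17b6 in profile, was at -1.81 in adjacent liver and 0.68 in tumor, and its most variable probe set gave 1.42 in tumor, which was called. Rdh11, a retinal reductase, fell by 1.67 in adjacent liver and was at -0.64 in tumor, and it rose by 1.03 between adjacent liver and tumor (adjusted p = 5.58e-05), a call that was lost without adjacent liver replicate 2 (0.93) or tumor replicate 3 (0.96) and with array weights (0.95), and that the mean of its probe sets left just under the limit.

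Hao2, a peroxisomal hydroxyacid oxidase gene that lies just past the Hsd3b genes, rose by 1.79 in adjacent liver and was at -0.84 in tumor. The group means of its neighbour Hsd3b1 had the same order, but its tumor difference of -0.31 did not pass (limma adjusted p = 0.187). This order is unlike that of Hsd3b2, which fell in both tissues.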
